A study of Mus musculus with 8 samples.

Results

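CXC chemokines are small secreted proteins that recruit leukocytes, and 10 genes of this family and its receptors were followed in livers after ischemia and reperfusion (I/R). They are the ligand genes Cxcl1, Cxcl2, Cxcl3, Cxcl5, Cxcl12, Cxcl13 and Cxcl16 and the receptor genes Cxcr1, Cxcr2 and Cxcr4. Members were taken by gene symbol, and each symbol matched 1 of the 54532 genes listed. All 10 reached the minimum mean of 0.1 FPKM (fragments per kilobase of gene, scaled for library depth) and were among the 16645 genes tested. RNA of liver tissue was sequenced from 4 METTL3-HKD and 4 METTL3-Flox mice, after 1 h of partial liver ischemia and 6 h of reperfusion. The comparison asks how reduced hepatocyte METTL3, an RNA m6A methyltransferase, goes with the response to I/R.

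METTL3-HKD mice were METTL3 flox/-; Alb-iCre, that is, heterozygous animals with lowered METTL3 in which Cre was driven by the albumin promoter, which acts in hepatocytes. METTL3-Flox mice were METTL3 flox/flox littermates, and the floxed segment in both genotypes is exon 4. Carrying Cre and losing METTL3 cannot be told apart in this design. Sham livers were not analysed here, so every value describes mice after I/R. The clamp in the paper's model closed only the left and middle portal branches, and the lobe sampled is not stated there. The age and sex of these 8 mice are not given in the sources used here. Each library is 1 mouse, so p-values measure the spread between mice.

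Cxcl1, Cxcl2, Cxcl3 and Cxcl5 belong to the chemokines with a glutamate-leucine-arginine motif, which signal through CXCR2, and in part CXCR1, to draw neutrophils out of the blood. CXCL12 is the ligand of CXCR4 and retains leukocytes in the marrow and in tissue, CXCL13 attracts B cells through CXCR5, and CXCL16 is made as a membrane-bound protein that binds CXCR6. In the liver, neutrophils that enter through the sinusoids are a known part of I/R injury.

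The promoters of Cxcl1, Cxcl2 and Cxcl3 are shown because these 3 genes of a chromosome 5 cluster carry the same short site. Transcripts of Cxcl2 and Cxcl3 were higher in METTL3-HKD livers, and those of Cxcl1 overlapped between the groups. The sequences are from RefSeq on GRCm38.p6, run 5′ to 3′ on the plus strand from 250 bases before the start to 50 after it, and have in capitals the 11 bases in which a match to the kappaB consensus, the binding motif of NF-kappaB, occurs on both strands.
Cxcl1, chr5:90890995-90891294: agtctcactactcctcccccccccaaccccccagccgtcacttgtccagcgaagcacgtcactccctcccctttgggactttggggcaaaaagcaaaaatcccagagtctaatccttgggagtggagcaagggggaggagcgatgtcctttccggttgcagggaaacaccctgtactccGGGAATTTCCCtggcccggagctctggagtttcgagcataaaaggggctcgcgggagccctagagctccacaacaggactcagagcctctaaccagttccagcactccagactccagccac
Cxcl2, chr5:90903649-90903948: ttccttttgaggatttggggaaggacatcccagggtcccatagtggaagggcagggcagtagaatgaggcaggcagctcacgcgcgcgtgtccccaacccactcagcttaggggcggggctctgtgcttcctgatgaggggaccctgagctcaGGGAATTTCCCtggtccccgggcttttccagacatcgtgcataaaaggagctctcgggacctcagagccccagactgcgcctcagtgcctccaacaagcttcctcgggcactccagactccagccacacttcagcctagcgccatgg
Cxcl3, chr5:90785851-90786150: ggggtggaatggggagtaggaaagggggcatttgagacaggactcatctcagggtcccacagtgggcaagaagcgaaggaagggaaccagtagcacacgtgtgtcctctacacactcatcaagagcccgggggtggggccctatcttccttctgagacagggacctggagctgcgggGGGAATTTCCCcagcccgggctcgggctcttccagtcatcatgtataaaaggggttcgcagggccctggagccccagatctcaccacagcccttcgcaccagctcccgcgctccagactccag
The kappaB match on the plus strand began 71 bases before the start of Cxcl1, 97 before that of Cxcl2 and 73 before that of Cxcl3. Its 11-base form GGGAATTTCCC was the same in all 3 and was present in 14 of 32851 promoters of the same length, or 0.0426%, whereas 8.46% held any kappaB match on either strand. RefSeq promoters were found for 8 of the 10 members, not for Cxcl5 and Cxcl16. None of the other 5 held a kappaB match. The AP-1 motif TGANTCA, read on both strands, was in 0 of the 8 and in 7.81% of all promoters, and TATAAA was in those of Cxcl3, Cxcl13 and Cxcr4 and in 8.32% of all. These matches describe letters in the window and not sites in use.

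Depth was similar in the groups, with 15961479 to 18434488 reads on genes in METTL3-HKD and 15861245 to 17262991 in METTL3-Flox. The targeted gene, Mettl3, ranged from 1.17 to 1.56 FPKM over the METTL3-HKD livers and from 1.16 to 1.84 FPKM over the METTL3-Flox livers. The groups overlapped, and the log2 fold change was -0.16 (SE 0.165, limma adjusted p = 0.556), so the gene-level value does not separate the labels. It counts the whole gene and not exon 4, comes from all liver cells and shares 1561 bases with Tox4 on the other strand, which had 5.35 to 6.85 FPKM. Hepatocyte markers were present as the tissue label says, led by Alb, Apoa1 and Fgb, with a summed level of 26710 to 37890 FPKM in METTL3-HKD and 34140 to 40019 FPKM in METTL3-Flox.

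Of the 10 members, 6 were higher in METTL3-HKD livers and 0 lower by the rule used throughout, which asks for a limma adjusted p below 0.05 together with a log2 fold change of 1 or more in size. Over all genes tested, 4.70% were higher and 1.52% lower by this rule, and 9.05% were higher by the adjusted p alone. The 6 were the ligands Cxcl2, Cxcl3 and Cxcl5 and the receptors Cxcr1, Cxcr2 and Cxcr4. Their groups did not overlap either, which held for 12.7% of all genes in this direction. Cxcl12 lay lower without overlap, and Cxcl1, Cxcl13 and Cxcl16 overlapped. The median log2 fold change was 2.59 over the members and -0.00 over all genes tested.

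**Figure D1:**
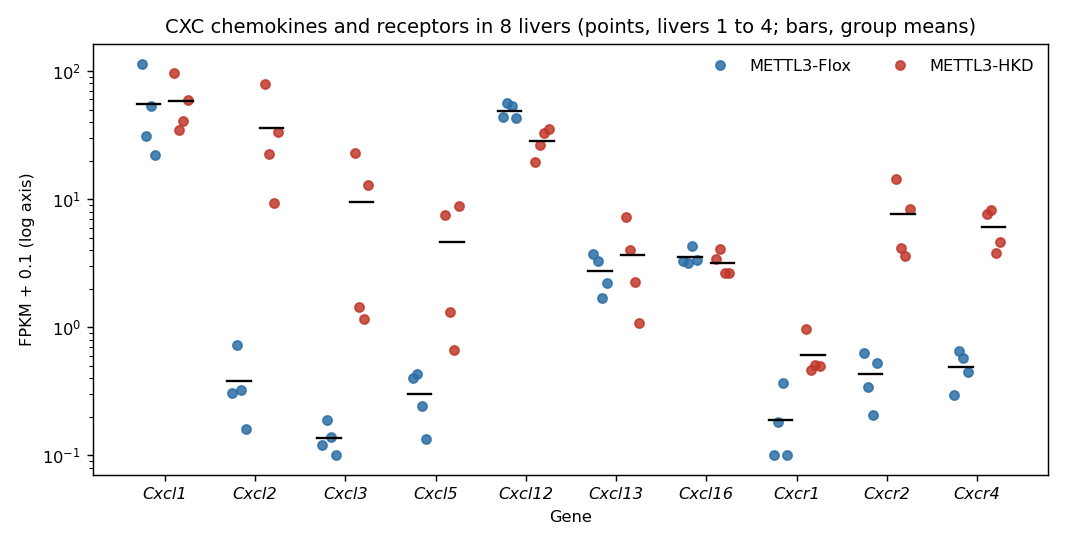
FPKM plus 0.1 on a log axis for the 10 members in 4 METTL3-Flox livers (blue) and 4 METTL3-HKD livers (red), with livers 1 to 4 from left to right and the group mean as a bar. Cxcl2, Cxcl3, Cxcl5, Cxcr1, Cxcr2 and Cxcr4 are apart with METTL3-HKD above, Cxcl12 is apart with METTL3-HKD below, and the other 3 overlap.

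Cxcl2, which encodes MIP-2, a chief neutrophil attractant of rodents, stood at 79.0, 22.6, 9.16 and 33.0 FPKM in METTL3-HKD livers 1 to 4. METTL3-Flox livers 1 to 4 had 0.204, 0.628, 0.223 and 0.0601 FPKM. The lowest METTL3-HKD liver was 14.6-fold above the highest METTL3-Flox liver. The group means were 35.9 ± 30.3 and 0.279 ± 0.244 FPKM (SD, n = 4 each), and the log2 fold change of FPKM plus 0.1 was 6.38 (SE 0.644, limma adjusted p = 0.00190). Because 36 reads stood for the gene in all 4 METTL3-Flox livers together against 5759 in METTL3-HKD, the size of the fold is only loosely set. The ratio of scaled reads was 131, with an exact 95% interval for counting error of 94.6 to 187. With the spread between mice, the limma 95% interval of the fold of FPKM plus 0.1 was 30.3 to 228.

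Cxcl3, a close paralog that also acts on CXCR2, had levels of 22.6, 1.33, 1.06 and 12.7 FPKM in METTL3-HKD livers 1 to 4. It was nearly absent from METTL3-Flox livers, which had 0.0201, 0.0885, 0.0376 and 0 FPKM. METTL3-HKD livers 1 and 4 held most of the signal, and livers 2 and 3 were still above every METTL3-Flox liver. The log2 fold change was 5.14 (SE 0.914, adjusted p = 0.0105 with limma), and the 8 reads of the METTL3-Flox group left a wide counting interval of 134 to 611 around the read ratio of 264. With limma voom on rebuilt reads the adjusted p was 0.153. In the annotated transcripts Cxcl2 and Cxcl3 share a run of 110 identical bases and 89.7% of aligned coding columns, so how reads from that stretch were divided between them is uncertain.

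Cxcl5, which encodes LIX, a further CXCR2 ligand, was at 7.45, 1.22, 0.565 and 8.72 FPKM in METTL3-HKD livers 1 to 4. METTL3-Flox livers 1 to 4 had 0.302, 0.332, 0.141 and 0.0333 FPKM. As for Cxcl3, METTL3-HKD livers 1 and 4 were high and livers 2 and 3 low, and METTL3-HKD liver 3 was only 1.70-fold above METTL3-Flox liver 2. The log2 fold change was 3.34 (SE 0.830, limma adjusted p = 0.0297), from 642 reads in METTL3-HKD against 23 in METTL3-Flox livers. This call was made in 6 of 15 alternative settings, and was lost among others without METTL3-HKD liver 1 or 4 or without METTL3-Flox liver 2, 3 or 4, where limma adjusted p reached up to 0.110 over the settings.

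Cxcl1, which encodes KC, was the most abundant ligand of this class and overlapped between the groups. METTL3-HKD livers 1 to 4 had 96.8, 34.9, 40.5 and 59.9 FPKM. Those of METTL3-Flox mice, 1 to 4, had 114, 31.2, 53.5 and 22.1 FPKM. The highest and the lowest values were both in METTL3-Flox livers. The log2 fold change was 0.24, with a 95% interval of -0.90 to 1.38 (limma adjusted p = 0.783) that reached past the fold threshold on its upper side.

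The makeup of the CXCR2 ligands was set side by side as shares of FPKM, which depend on the gene lengths deposited. These were 3498 bases for Cxcl3 against 1016 in an annotated transcript, 1875 against 953 for Cxcl1 and 1863 against 1575 for Cxcl5. Cxcl1 was 47.0%, 58.1%, 79.0% and 52.3% of the summed FPKM of Cxcl1, Cxcl2, Cxcl3 and Cxcl5 in METTL3-HKD livers 1 to 4. In METTL3-Flox livers the share was 96.7% to 99.6%, and all 4 lay above every METTL3-HKD liver. Cxcl2 supplied 17.9% to 38.4% in METTL3-HKD and 0.178% to 1.95% in METTL3-Flox. The summed level itself was 51.3 to 206 FPKM in METTL3-HKD and 22.2 to 115 FPKM in METTL3-Flox, and the groups overlapped.

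Ratios taken within each liver of log2 FPKM plus 0.1 gave the test of this difference. The log2 ratio of Cxcl2 to Cxcl1 was -0.98 ± 0.80 in METTL3-HKD and -7.12 ± 1.29 in METTL3-Flox livers (mean ± SD, n = 4), a difference of 6.14 (SE 0.761, two-sided exact permutation p = 0.0286). For Cxcl3 to Cxcl1 the difference was 4.90 and for Cxcl5 to Cxcl1 it was 3.10, and each gave the same exact permutation p. That is the smallest p that 4 livers against 4 allow, and it became 0.0457 after Benjamini-Hochberg adjustment over the 8 gene pairs compared. The adjusted value rests on which pairs were compared, since it depends on how many of them reached that smallest p. Cxcr4 to Cxcl12 was bound to reach it, because its genes were apart in opposite directions. The Cxcl5 to Cxcl1 difference fell to 1.55 with a pseudocount of 1 FPKM (exact permutation test, adjusted p = 0.114).

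The 4 genes lie together on the plus strand of chromosome 5 of GRCm38, in a cluster of 7 CXC ligand genes that spans 147 kb from the start of Cxcl5 to the end of Cxcl2. Cxcl5 runs from 90759360 to 90761624, Cxcl3 from 90786103 to 90789600, Cxcl1 from 90891241 to 90893115 and Cxcl2 from 90903871 to 90905938. Cxcl1 and Cxcl2 are direct neighbours, with 10755 bases between the end of the first and the start of the second, yet have the smallest and the largest log2 fold change of the cluster. Ppbp and Pf4, which encode platelet chemokines, lie between Cxcl5 and Cxcl3. Ppbp was higher at a log2 fold change of 1.82 (SE 0.429, limma adjusted p = 0.0252), a call lost without METTL3-HKD liver 4 or METTL3-Flox liver 3 or 4, and Pf4 stood at 1.24 (SE 0.476, limma adjusted p = 0.107). Cxcl15 had 0 reads in all livers.

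**Figure D2:**
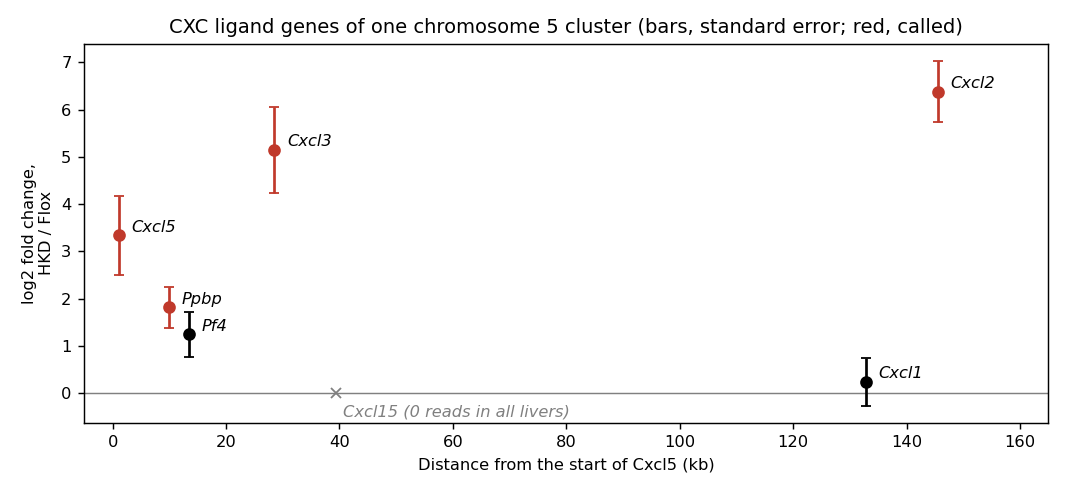
Log2 fold change of FPKM plus 0.1, METTL3-HKD over METTL3-Flox, with its standard error, against distance in kb from the start of Cxcl5 for the genes of the chromosome 5 cluster. Red points passed both thresholds, Cxcl1 at 0.24 stands beside Cxcl2 at 6.38, and the cross marks Cxcl15, which was not tested.

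Short motifs in the transcripts were counted as well. Cxcl2 had 11 copies of ATTTA, the core of AU-rich decay elements, in its 3′ untranslated region, Cxcl1 had 7, and Cxcl3 and Cxcl5 had 5 each in the first-numbered coding transcripts of GENCODE M21. At least 11 copies were found in 3.1% of 21877 coding genes, at least 7 in 8.2% and at least 5 in 14.2%. GGACT, a common form of the m6A motif read on the transcript strand, was found 0 times in Cxcl2 and in Cxcl3, once in Cxcl5, 2 times in Cxcl1 and 10 times in Cxcl12. At least 10 were in 3.6% of coding genes. The Cxcl12 transcript has 5627 bases against 1109 for Cxcl2 and 1016 for Cxcl3. Neither the motif counts nor their shares were scaled to length, so they do not show that a transcript is rich or poor in a motif. No m6A was measured in these libraries.

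Among the receptors, Cxcr2, through which neutrophils follow the ligands above, was at 14.3, 4.05, 3.52 and 8.33 FPKM in METTL3-HKD livers 1 to 4. The METTL3-Flox livers 1 to 4 had 0.531, 0.244, 0.108 and 0.428 FPKM. The lowest METTL3-HKD liver was 6.64-fold above the highest METTL3-Flox liver. The log2 fold change was 4.06 (SE 0.489, limma adjusted p = 0.00339), from 1771 reads against 61. Cxcr2 lies on chromosome 1 from 74153989 to 74161246 on the plus strand.

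Cxcr1, the second receptor for part of these ligands, begins 30538 bases beyond the end of Cxcr2 and is read from the minus strand. METTL3-HKD livers 1 to 4 had 0.867, 0.363, 0.408 and 0.397 FPKM. METTL3-Flox livers 1 to 4 had 0, 0.0830, 0.265 and 0 FPKM. All METTL3-HKD livers were above METTL3-Flox liver 3, the highest of its group, by 1.37-fold or more. With 58 and 8 reads behind the groups, the log2 fold change of 1.85 (SE 0.465, limma adjusted p = 0.0306) was called in 6 of 14 alternative settings and was lost without METTL3-HKD liver 1, 2 or 4 or METTL3-Flox liver 1, 2 or 4, with limma adjusted p up to 0.0866 over the settings. The log2 ratio of Cxcr1 to Cxcr2 was -3.49 ± 0.59 in METTL3-HKD and -1.29 ± 1.60 in METTL3-Flox livers, a difference of -2.21 (SE 0.852, exact permutation p = 0.0286, 0.0457 adjusted). The METTL3-Flox side of that ratio rests on Cxcr1 values at or near 0 and hence on the pseudocount.

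Cxcr4, the CXCL12 receptor of many leukocytes including ageing neutrophils, was at 7.56, 8.11, 3.71 and 4.49 FPKM in METTL3-HKD livers 1 to 4. Values in METTL3-Flox livers 1 to 4 were 0.195, 0.548, 0.473 and 0.344 FPKM. The gap between the groups was 6.76-fold from the lowest METTL3-HKD to the highest METTL3-Flox liver. The log2 fold change was 3.62 (SE 0.319, limma adjusted p = 0.00112). Cxcl2, Cxcr2 and Cxcr4 passed both thresholds in each of 15 alternative settings. The gene is on the minus strand of chromosome 1 from 128588199 to 128592293.

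Cxcl12, the gene of its ligand, was lower. METTL3-HKD livers 1 to 4 had 19.5, 26.2, 32.9 and 35.0 FPKM. METTL3-Flox livers 1 to 4 had 43.4, 56.6, 52.9 and 42.9 FPKM, so every METTL3-HKD liver was below every METTL3-Flox liver. The log2 fold change was -0.81 (SE 0.188, limma adjusted p = 0.0240), past the adjusted p and short of the fold threshold. Over all genes tested, 6.63% were lower at that adjusted p, and 9.95% were lower without overlap. Without METTL3-HKD liver 2 or METTL3-Flox liver 2 or 3 the limma adjusted p rose to at most 0.0681. The log2 ratio of Cxcr4 to Cxcl12 was -2.27 ± 0.88 in METTL3-HKD and -6.70 ± 0.34 in METTL3-Flox livers. The difference was 4.43 (SE 0.474, exact permutation p = 0.0286, 0.0457 adjusted over the pairs). Since Cxcr4 was apart above and Cxcl12 apart below, this ratio could only be apart. Its p therefore adds nothing to the single-gene results.

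Cxcl13 and Cxcl16 gave no detectable difference. For Cxcl13, METTL3-HKD livers 1 to 4 had 7.18, 3.91, 2.17 and 0.983 FPKM, and METTL3-Flox livers 1 to 4 had 3.61, 3.18, 1.60 and 2.11 FPKM. Both the highest and the lowest value were in METTL3-HKD livers, and the 95% interval of the log2 fold change was -1.04 to 1.36 (limma adjusted p = 0.867). For Cxcl16, METTL3-HKD livers 1 to 4 had 3.32, 3.96, 2.53 and 2.53 FPKM, and METTL3-Flox livers 1 to 4 had 3.19, 3.09, 4.22 and 3.25 FPKM. Its interval of -0.55 to 0.22 (limma adjusted p = 0.542) was, with that of Cxcl12, among the narrowest of the members. It overlaps Zmynd15 on the other strand by 552 bases, and since the strand setting is not given in the sources used here, reads there could belong to either gene.

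The order of levels, which also depends on the gene lengths deposited, differed between the groups. By mean FPKM, Cxcl1 (55.3 ± 41.5) and Cxcl12 (49.0 ± 6.89) came first in METTL3-Flox livers (SD, n = 4) and were not apart from each other. Cxcl16 and Cxcl13 followed below a gap, and after a second gap came Cxcr4, Cxcr2, Cxcl2, Cxcl5, Cxcr1 and Cxcl3, of which no neighbours in the order were apart. In METTL3-HKD livers Cxcl1 (58.0 ± 28.0) was followed by Cxcl2, Cxcl12, Cxcl3, Cxcr2, Cxcr4, Cxcl5, Cxcl13 and Cxcl16, each overlapping the next. Only Cxcr1 (0.509 ± 0.240) stood apart at the bottom.

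Other CXC ligand genes and other chemokine receptor genes, including atypical receptors, are described by their counts. Of 8 other CXC ligand genes, 6 were tested, 1 was higher and 0 lower, with a median log2 fold change of 0.87. Ppbp was the 1, and Cxcl14, Pf4 and Cxcl9 were the most abundant, at 0.60, 1.24 and -0.60. Of 7 other chemokine receptor genes, 6 were tested, and Ackr3, an atypical receptor that takes up CXCL12, was higher at 1.32 (SE 0.354, limma adjusted p = 0.0377) from 0.438 ± 0.189 to 1.27 ± 0.643 FPKM. Neither call held with a pseudocount of 1 FPKM, and that of Ackr3 was lost without METTL3-HKD liver 1, 3 or 4 or METTL3-Flox liver 1, 3 or 4. Cxcr5, the CXCL13 receptor, was too low to be tested.

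**Figure D3:**
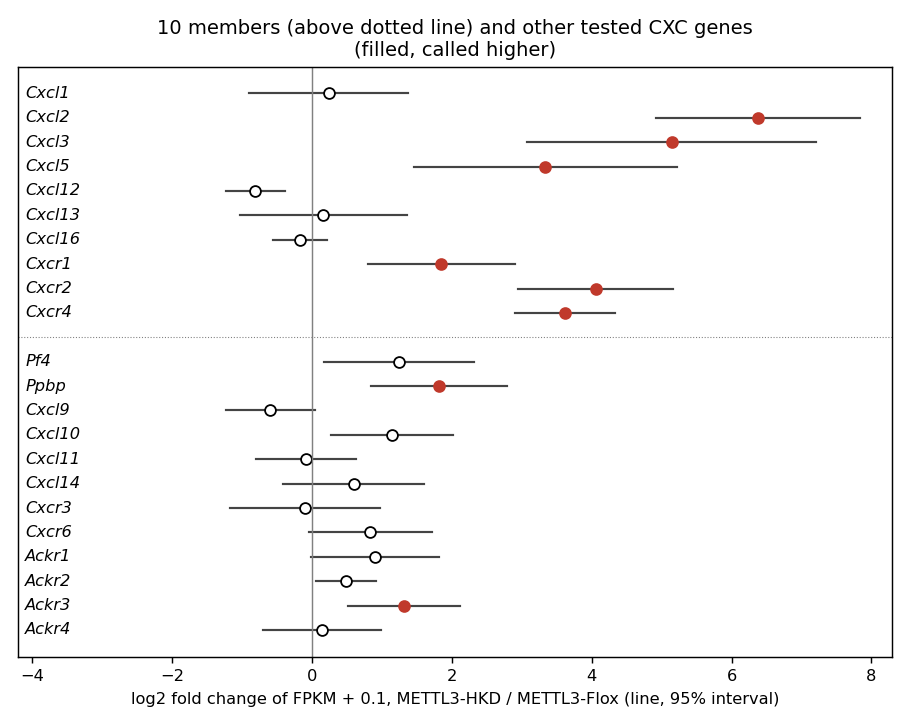
Log2 fold change of FPKM plus 0.1, METTL3-HKD over METTL3-Flox, with its 95% interval for the 10 members above the dotted line. The 12 other CXC ligand and chemokine receptor genes tested, the latter including atypical receptors, are below it. Filled points passed both thresholds, which 6 of the members and 2 of the others did.

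Cytokines, receptors and NF-kappaB regulators that control these ligands were examined as 18 genes, among them the restraining factors Nfkbia, Tnfaip3, Zfp36 and Zc3h12a. Of the 18, 16 were tested, 7 were higher and 0 lower, with a median log2 fold change of 0.99. The 7, named after their values were seen, were the cytokines Tnf, Il1b, Il6 and Csf3, the receptors Tlr2 and Tlr4 and the inhibitor Tnfaip3. Csf3, which encodes the neutrophil growth factor G-CSF, was listed at 0 in all 4 METTL3-Flox livers. Nfkbia, Zfp36 and Rela, the most abundant of the list, had log2 fold changes of 0.37, 0.45 and 0.19, and none passed (limma adjusted p from 0.106 to 0.219). Of 12 genes for signalling and desensitisation downstream of the receptors, 1, Rgs18, was higher and 0 lower, with a median of 0.22, a call lost without METTL3-HKD liver 1 or 2. Gnai2, Gnb2 and Grk2, the most abundant, stood at 0.09, 0.04 and 0.17.

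Genes of neutrophil capture on endothelium were higher for 6 of 11 and lower for 0, with a median log2 fold change of 1.55. Those higher included, also named after their values were seen, the selectins Sele and Selp, the selectin ligand Selplg, the integrin subunit Itgam and the adhesion receptor Cd44. Of the 3 most abundant, Itgb2 and Icam1 did not pass, at 1.07 and 0.45 (limma adjusted p of 0.0814 and 0.0751), and Cd44 was at 1.69. Sele, the endothelial selectin that cytokines induce, had 2.34 ± 0.965 FPKM in METTL3-HKD and 0.0976 ± 0.0823 FPKM in METTL3-Flox livers (n = 4 each).

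Neutrophil markers were higher alongside the receptors. Of 16 markers, 15 were tested, 10 were higher and 0 lower, with a median log2 fold change of 3.12. The list summed to 957 to 2540 FPKM in METTL3-HKD and 651 to 2349 FPKM in METTL3-Flox livers, most of it from Lcn2, which injured hepatocytes also make and which did not pass (-0.51). Without Lcn2, left out after its values were seen, the sums were 345 to 1682 FPKM and 20.8 to 55.1 FPKM. Most of these sums in METTL3-HKD livers came from S100a8 (99.6 to 519 FPKM) and S100a9 (195 to 867 FPKM), so they describe those genes more than the list. Ly6g had 0 reads in 3 of 4 METTL3-Flox livers and in 0 METTL3-HKD livers. In whole tissue, fewer cells of a type and less RNA per cell cannot be told apart, and the part of neutrophil number in the member results was not tested.

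Cxcr2 was also set against 2 neutrophil genes of the same liver, and neither ratio passed the test. The log2 ratio of Cxcr2 to Csf3r, the G-CSF receptor, was -0.58 ± 0.52 in METTL3-HKD and -1.51 ± 0.79 in METTL3-Flox livers, a difference of 0.93 (SE 0.472, exact permutation p = 0.114, 0.152 adjusted). To S100a8, which encodes an abundant cytosolic protein of neutrophils and monocytes, it was -4.75 ± 0.39 and -4.36 ± 0.49, a difference of -0.38 (SE 0.313, exact permutation p = 0.229, 0.261 adjusted), although with a pseudocount of 1 FPKM the difference became -1.75 (exact permutation test, adjusted p = 0.0457). Cxcr4 to Cxcr2 differed by -0.44 (SE 0.732, exact permutation p = 0.629), with overlap in both directions.

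**Figure D4:**
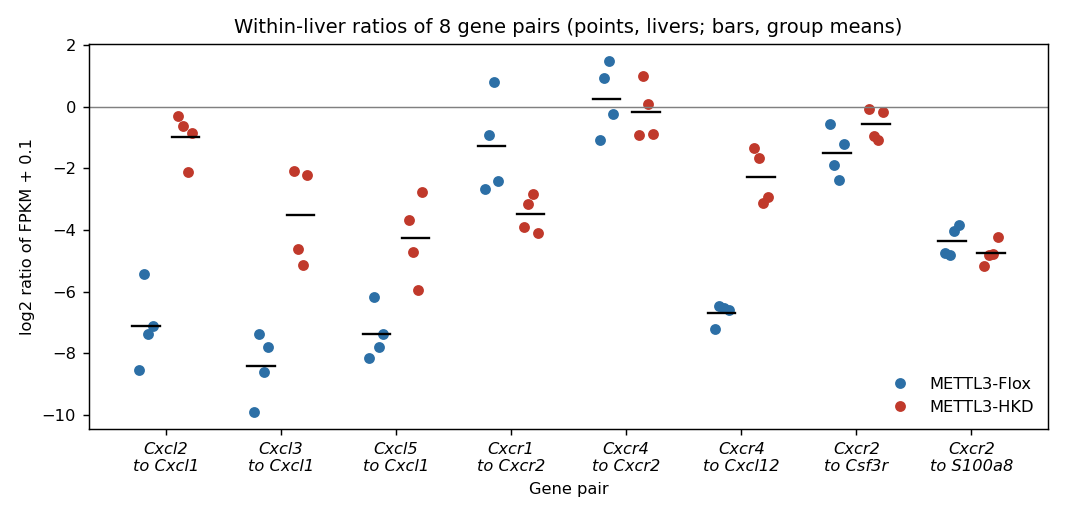
Log2 ratio of FPKM plus 0.1 for 8 gene pairs in 4 METTL3-Flox livers (blue) and 4 METTL3-HKD livers (red), with group means as bars. The 3 ligand ratios to Cxcl1 and the ratio of Cxcr4 to Cxcl12 are apart with METTL3-HKD above, Cxcr1 to Cxcr2 is apart with METTL3-HKD below, and the last 2 pairs and Cxcr4 to Cxcr2 overlap.

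Markers of other cell types were set beside these results. Kupffer cell markers were lower for 3 of 8 and higher for 0, with summed levels of 92.6 to 191 FPKM in METTL3-HKD and 191 to 470 FPKM in METTL3-Flox livers. The count lower fell to 0 without METTL3-HKD liver 3 or 4 or METTL3-Flox liver 1, 3 or 4, and also with no minimum or with scaling to reads on genes. Of the most abundant, Cd5l (-1.37), whose groups overlapped, and Clec4f (-1.31) were lower in the fit of all livers, and C1qa (-0.90) did not pass. Monocyte markers were higher for 3 of 7, summing to 105 to 298 FPKM and 47.8 to 80.3 FPKM. Biliary markers were higher for 4 of 5, and for 2 without METTL3-HKD liver 1 or 2 or METTL3-Flox liver 2, 3 or 4. Their sums of 119 to 369 FPKM and 52.5 to 77.6 FPKM were mostly Spp1, which macrophages also express and which had 109 to 355 FPKM and 46.4 to 73.5 FPKM.

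Stellate and fibroblast markers, which mark stromal cells that can make CXCL12, summed to 47.9 to 68.4 FPKM and 47.3 to 81.0 FPKM. Of 9, 1, Colec11, was lower (log2 fold change -1.34, limma adjusted p = 0.0153) and 1, Des, was higher. The call higher was lost without METTL3-HKD liver 1 or 3 or any 1 METTL3-Flox liver. Dcn and Rgs5, with Colec11 the most abundant of the list, were at 0.11 and 0.18 and did not pass. Mesothelial markers were higher for 2 of 5, for 0 without METTL3-HKD liver 1 or 2 or any 1 METTL3-Flox liver, and for 4 without METTL3-HKD liver 4. Sinusoidal endothelial markers had 0 of 8 called, and B and T cell markers 0 of the 5 tested. At a limma adjusted p below 0.05 alone, 2 of 8 sinusoidal and 2 of 9 stellate markers were lower, and 0 and 1 higher. Over all genes tested, 6.63% were lower and 9.05% higher at that adjusted p, which Cxcl12 also passed. The part of these cell types in the member results was not tested.

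Livers of 1 group differed from each other along lines that several members shared. After the group mean was taken from each value, METTL3-HKD liver 1 was above its group for Cxcl2 (1.54 log2 units), Cxcl3 (2.28), Cxcl5 (1.45) and Cxcr2 (1.14). METTL3-HKD liver 3 was below for the same genes (-1.56, -2.02, -2.06 and -0.85). METTL3-HKD liver 4 was high for Cxcl3 and Cxcl5 (1.45 and 1.67) and close to its group mean for Cxcl2 (0.28). Correlations of these deviations over the 8 livers are given as a description, since the points share libraries and scaling. They were 0.93 for Cxcl3 with Cxcl5 and 0.82 for Cxcl2 with Cxcl3. Cxcr2 had 0.91 with S100a8, 0.63 with Csf3r and -0.21 with Cxcr1.

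**Figure D5:**
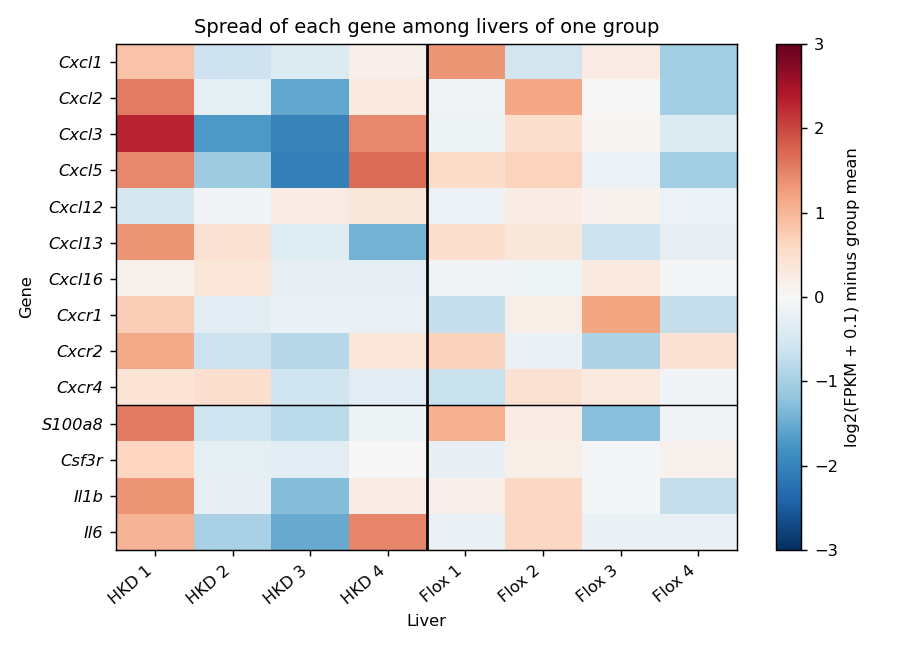
Deviation of log2 FPKM plus 0.1 from its group mean for the 10 members and 4 further genes (rows) in 8 livers (columns), with red above and blue below the mean and the scale limited to 3 log2 units. METTL3-HKD liver 1 is red and METTL3-HKD liver 3 is blue for Cxcl2, Cxcl3, Cxcl5 and Cxcr2, while Cxcl12 and Cxcl16 stay pale.

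The genes most like a member by this measure were sought among 9798 protein-coding genes whose mean reached 1 FPKM. For Cxcl2 they were Hcar2 (r = 0.99), Ms4a4a (0.98), Il1b (0.98), Zc3h13 (0.97) and Ddx5 (0.97), over 8 livers. Hcar2, a receptor for niacin and ketone bodies, and Il1b, the interleukin-1 beta gene, were higher in METTL3-HKD, at log2 fold changes of 5.24 and 3.93 (limma adjusted p of 0.000315 and 0.00381), while Zc3h13 and Ddx5 were at -0.08 and 0.13. For Cxcr2 they included Ctps, Polr2f, Hinfp and Ggta1 (0.96 to 0.98), and for Cxcr4 they were Mapk6, Mob1b, Itgav, Tollip and Asxl1 (0.97 each). With 8 livers and this many genes compared, values of this size are a ranking only.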

How the data were processed

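The authors deposited FPKM for 54532 genes in 8 livers, with gene lengths. The libraries were made with a SMARTER mRNA-Seq kit, and the submitters' processing notes name GRCm38 and mm10. The aligner, counting and strand setting are not given in the sources used here. Coordinates are those of the deposited table and were the same in GENCODE M21 for all 10 members. The symbols of 27 genes that had become dates were restored by identifier. Multiplied by gene length and a size per library, 100% of non-zero values came out as whole reads (tolerance 0.1 read). These sizes were 1.01 to 1.17 times the reads on genes in METTL3-HKD and 0.840 to 1.01 times in METTL3-Flox, so the deposited FPKM were scaled between libraries.

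The 16645 genes whose mean reached 0.1 FPKM were compared as log2 of FPKM plus 0.1 with limma 3.58.1 (lmFit, eBayes with trend, two-sided) run in R 4.3.3, and p-values were adjusted over all of them by Benjamini-Hochberg. A fold change on this scale understates the change of low genes. A call needed an adjusted p below 0.05 with a log2 fold change of 1 or more in size, and the members' calls used this fit over all genes. Ratios were tested by exact permutation with scipy 1.17.1 in Python 3.11.15. Counting intervals are exact and cover counting error only. On simulated data with 200 of 16620 genes changed in METTL3-HKD against METTL3-Flox, the fit called 199 of these and 9 unchanged genes. In simulated data the size of the changes and the spread between mice are chosen beforehand. Real livers could differ widely, as for Cxcl3 at 1.06 to 22.6 FPKM over the METTL3-HKD livers. The simulation thus checks that the fit runs as intended and gives no error rate for the calls on the members.

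Members, pathway lists and marker lists were chosen with earlier results of these data known. Named are the members, Mettl3, the genes of the pairs, the 3 most abundant tested genes of each list, the 5 genes most like Cxcl2, Cxcr2 and Cxcr4, and others where the text says that they were named after their values were seen. Ppbp, Ackr3, Rgs18, Zc3h12a, Des, Ly6g, Cxcl15, Cxcr5 and the deviations of 4 further genes were also chosen after their values were seen. Some single genes that this rule names are not reported here. Alternatives were a pseudocount of 1 FPKM in place of 0.1, no trend, no minimum mean or one of 1 FPKM, a replicate block, scaling to reads on genes, limma voom on rebuilt reads, and leaving out each liver.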

Additional observations from a re-analysis of the deposited data

Results flagged for a closer look

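In 2 of 36 groups of 4 livers examined, 1 liver lay far from the other 3 by the ratio of its gap to the whole range, and chance gives about 1 in 20 groups. METTL3-Flox liver 3 was high for Cxcl16 (ratio 0.862), at 4.22 FPKM against 3.09 to 3.25 FPKM in the other METTL3-Flox livers. METTL3-HKD liver 1 was high for Cxcr1 (ratio 0.910), at 0.867 FPKM and 26 reads against 10 to 11 reads in the other METTL3-HKD livers.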

How the results depend on the processing

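The members called higher numbered 4 to 6 under every alternative run and those called lower 0. Over all genes tested, 782 were higher and 253 lower. These became 317 and 88 with a pseudocount of 1 FPKM, 450 and 183 with a minimum mean of 1 FPKM, 685 and 163 with no minimum, and 492 to 960 and 94 to 341 as livers were left out. Scaling to reads on genes gave 1044 and 133, or 88.7% higher among calls against 75.6%, with the median of all genes at 0.20 against -0.00, and Cxcl16 went to 0.044. Cxcl1 went to -0.05 without METTL3-HKD liver 1 and -0.11 without METTL3-Flox liver 4 (range as livers were left out, -0.11 to 0.68), and Cxcl13 to -0.28 without METTL3-HKD liver 1 and -0.04 without METTL3-Flox liver 3 (range -0.28 to 0.64). The cause was not tested. Other CXC ligands called higher went from 1 to 0 with a pseudocount or a minimum mean of 1 FPKM, to 2 with scaling to reads on genes, and ranged from 0 to 2 as livers were left out. Other receptors called higher went from 1 to 0 with no trend, no minimum, the replicate block, or 1 FPKM as pseudocount or as minimum mean, and ranged from 0 to 1 as livers were left out. The inducing signals called higher went from 7 to 3 with a pseudocount of 1 FPKM and to 4 with a minimum mean of 1 FPKM. Receptor signalling genes called higher went from 1 to 0 in both of these settings and ranged from 0 to 1 as livers were left out. Same-numbered livers had correlations of deviations of -0.08 to 0.07, and not every liver matched its own number best, though METTL3-HKD liver 1 and METTL3-Flox liver 1 matched each other best. Such values cannot show whether same-numbered livers shared a litter or a batch, and the main fit treated the livers as unpaired. The Kupffer, mesothelial, biliary and stellate counts given above moved as livers were left out. In other settings, Kupffer markers lower went to 1 with no trend, mesothelial markers higher to 0 with 1 FPKM as pseudocount or minimum mean or with the replicate block, biliary markers higher to 2 with a pseudocount of 1 FPKM, no minimum or the block, and stellate markers higher to 0 with a pseudocount of 1 FPKM, no minimum, no trend or voom and lower to 0 with the block. The replicate block gave 616 genes higher and 200 lower and 4 members higher, without Cxcl5 and Cxcr1. Few reads limit Cxcr1 and the METTL3-Flox side of Cxcl2, Cxcl3 and Cxcl5.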
